A study of Mus musculus with 6 samples.

Results

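Astrocytes of the hippocampus were the 1901 cells to which the authors' class Astrocyte was given, of 12823 cells in a Drop-Seq study of 6 mice. In Drop-Seq, each cell shares a droplet with a bead whose primers mark its RNA with a cell barcode and with unique molecular identifiers (UMIs), and 3' ends are counted. After removal of 24 astrocytes called as doublets, 1877 remained, of 12616 cells in all. The 3 mice treated with an antisense oligonucleotide (ASO) gave 382, 348 and 278 astrocytes, and the 3 treated with phosphate buffered saline (PBS) gave 258, 342 and 269. All 6 mice were 10 weeks old and of the APP/PS1 strain B6.Cg-Tg( APPswe,PSEN1dE9) 85Dbo/Mmjax, so both groups carried the mutant amyloid precursor and presenilin transgenes, which in this strain are driven by a prion protein promoter. There was no group of mice without the transgenes and none with a control oligonucleotide. The title of the study names IDOL, a ubiquitin ligase encoded by Mylip, as the protein that was reduced.

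Astrocytes are glial cells whose fine processes wrap synapses and whose endfeet cover blood vessels. They clear glutamate and potassium released by neurons, convert glutamate to glutamine, exchange water and ions at the vessel wall and are coupled to each other by gap junctions. In the brain they are also the main source of apolipoprotein E and of lipoprotein particles that carry cholesterol to neurons, and around amyloid plaques they take on a reactive state marked by the filament proteins GFAP and vimentin. IDOL leads lipoprotein receptors to degradation, and its gene is a target of the sterol-sensing LXR receptors, so genes of lipid transport in astrocytes are named below among the groups that were compared.

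The class held the marker genes fixed for it. Levels are given in CPM, a gene's share of all UMIs summed over the astrocytes of a mouse, scaled to a total of 1000000. Since the assay counts 3' ends, no correction for transcript length was made. Slc1a2 (GLT-1, the main glutamate transporter) was the highest of the 6 markers, at 13626, 15421 and 13338 CPM in the ASO mice, against 13640.4, 15794 and 13420.3 CPM in the PBS mice. Slc1a3 (GLAST, the second glutamate transporter) stood at 4631 to 5977 CPM over the 6 mice, Aldoc (the glycolytic enzyme aldolase C) at 6008 to 7942 CPM and Gja1 (the gap junction protein connexin 43) at 1791 to 2097 CPM. Ntsr2, a neurotensin receptor, stood at 1135 to 1357 CPM and Aqp4, the water channel of the endfeet, at 786 to 1259 CPM. At least 3 of the 6 markers were seen in 99.6% of astrocytes, and 0 astrocytes lacked all of them.

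The deposited classes rest on clusters of the same RNA counts, so the contrast of astrocytes with other classes is given as a description, with no test. Ntsr2 was 24.3 times as high in astrocytes as in the next class, the polydendrocytes (precursors of oligodendrocytes), and Aldoc was 17.2 times as high. For Slc1a2 the ratio was 11.6 over entorhinal and subicular neurons, and for Slc1a3 it was 9.72 over fibroblast-like cells. Gja1 and Aqp4 were closest to another class. They were 3.77 and 2.15 times as high as in ependymal cells, which stood at 498 CPM for Gja1 and 460.1 CPM for Aqp4.

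Shares of cells with a UMI were compared after each cell was thinned to 500 UMIs, with endothelial cells as a class that should lack these genes. Their median depths were 1095 and 1026 UMIs before thinning. Slc1a2 was then seen in 98.5% of astrocytes (95% exact interval 97.9% to 99.0%), against 9.56% of endothelial cells. Ntsr2 was seen in 46.1% of astrocytes (95% exact interval 43.8% to 48.4%), against 0.442% of endothelial cells. Aqp4 was seen in 34.8% of astrocytes (95% exact interval 32.7% to 37.0%), against 0.498% of endothelial cells. The intervals cover counting error only. At this depth, absence of a marker from a single cell is thus common for Aqp4 and Ntsr2 and rare for Slc1a2.

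**Figure D1:**
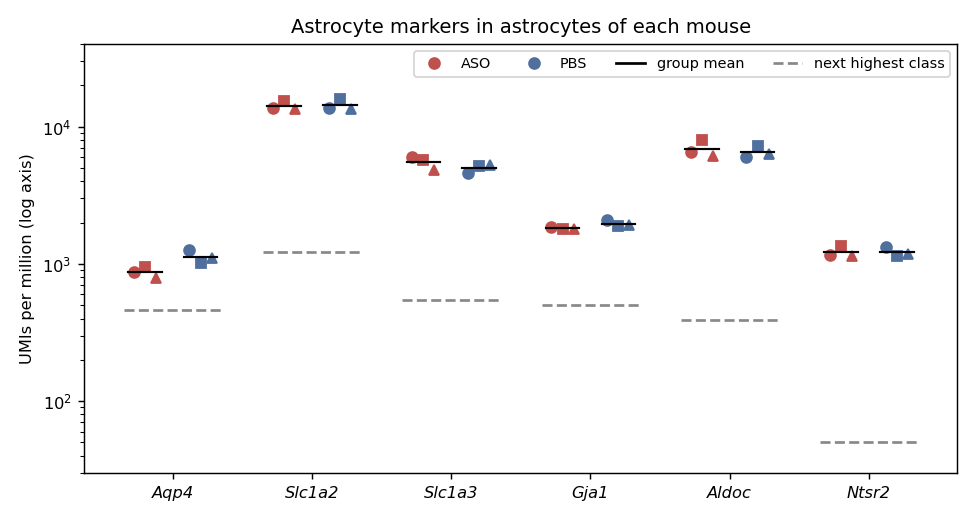
Levels of the 6 astrocyte markers in the astrocytes of each mouse, in CPM on a log axis, with ASO mice left and PBS mice right (circle, square and triangle are replicates 1, 2 and 3). Black lines are group means and dashed lines are the next highest class. All 6 mice lie above that class for every marker, and Aqp4 is the marker with the smallest distance, a ratio of 2.15.

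Among 1773 genes with at least 100 CPM in astrocytes, 116 were at least 2 times as high there as in any of the other 16 classes, 30 at least 5 times and 11 at least 10 times. Grin2c, an NMDA receptor subunit, headed this order at 402 CPM and a ratio of 25.1, and 94.6% of its UMIs lay in astrocytes. The tight junction gene Cldn10 followed Ntsr2 with a ratio of 19.2. Lipid enzymes came next, with Acsbg1, which activates long fatty acids, at 17.9 and Lcat, which esterifies cholesterol in lipoproteins, at 15.9. The growth factor receptor gene Fgfr3 had a ratio of 11.99, angiotensinogen (Agt) of 10.7 and the GABA transporter gene Slc6a11 of 10.7. The folate enzyme gene Aldh1l1, a common astrocyte label, had a ratio of 7.72, and Hsd11b1, which regenerates active glucocorticoids, closed the first 20 at 6.18. Several of these ratios rest on few UMIs in the next class, such as 1 UMI of Grin2c in CA2 and CA3 neurons and 2 UMIs of Cldn10 in the neurogenesis class.

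Promoters of these genes are shown because they share a strong bias to one cell type. Of the 20 genes, 19 had a RefSeq promoter (build GRCm38.p6, 250 bases before the gene's start and 50 from it on). Short motifs were searched on both strands, and each promoter printed held 1 match, so none overlapped. TGCCAA, letters bound by nuclear factor I, lay in 2 of 19, against 14.4% of 27025 promoters of all genes. The SOX factor letters AACAAT lay in 0 of 19, against 10.9% of all. The E-box CACGTG lay in 2, against 7.24% of all. The TATA box TATAAA lay in 4, against 14.2% of all. The share of G and C had a median of 60% in the astrocyte genes and of 52.7% in all promoters. A match is a description of the letters and not a bound site. The promoters below are those of 3 markers and of Agt, 5′ to 3′, each with its match in capitals. Aldoc (chr11:78322823-78323122, plus strand) holds TGCCAA on the opposite strand, 146 bases before the start. Ntsr2 (chr12:16653220-16653519, plus strand) holds CACGTG 152 bases before the start, and Slc1a3 (chr15:8710758-8711057, minus strand) holds TATAAA on the opposite strand 161 bases before it. Agt (chr8:124569657-124569956, minus strand) holds TATAAA with its first base 30 bases before the start.
Aldoc: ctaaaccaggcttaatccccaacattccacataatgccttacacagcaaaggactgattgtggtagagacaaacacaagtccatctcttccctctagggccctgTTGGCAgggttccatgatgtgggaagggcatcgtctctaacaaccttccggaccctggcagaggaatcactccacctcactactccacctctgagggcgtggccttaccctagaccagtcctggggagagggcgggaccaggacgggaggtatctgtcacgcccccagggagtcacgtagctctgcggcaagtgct
Ntsr2: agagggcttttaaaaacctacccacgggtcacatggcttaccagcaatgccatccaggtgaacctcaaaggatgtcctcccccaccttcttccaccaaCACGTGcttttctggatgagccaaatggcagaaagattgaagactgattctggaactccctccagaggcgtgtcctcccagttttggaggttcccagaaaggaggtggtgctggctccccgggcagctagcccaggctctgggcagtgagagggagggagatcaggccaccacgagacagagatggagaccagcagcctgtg
Slc1a3: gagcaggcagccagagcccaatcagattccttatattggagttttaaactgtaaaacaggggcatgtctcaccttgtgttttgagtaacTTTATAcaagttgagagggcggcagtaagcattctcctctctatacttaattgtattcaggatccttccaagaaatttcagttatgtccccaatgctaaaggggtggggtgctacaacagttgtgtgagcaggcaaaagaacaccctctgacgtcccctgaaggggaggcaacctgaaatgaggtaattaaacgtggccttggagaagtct
Agt: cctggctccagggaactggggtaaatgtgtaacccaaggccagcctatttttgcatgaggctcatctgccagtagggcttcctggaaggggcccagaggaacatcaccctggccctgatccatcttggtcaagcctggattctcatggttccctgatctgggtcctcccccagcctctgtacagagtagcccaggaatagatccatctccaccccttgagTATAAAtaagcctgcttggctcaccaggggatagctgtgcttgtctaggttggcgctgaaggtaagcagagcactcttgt

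The most abundant RNAs of the astrocytes included secreted proteins, lipid carriers and glutamate handling. The 30 genes with the most UMIs made up 23.3% of the total. The mitochondrial ribosomal RNA mt-Rnr2 was first, with 4.86% of UMIs. It was followed by Cst3, the protease inhibitor cystatin C, with 2.61%, the nuclear RNA Malat1 with 2.18% and Apoe with 1.70%. Sparcl1 (hevin, a matrix protein that promotes synapse formation) held 0.958%, the metallothionein Mt1 0.895%, Clu (clusterin, a lipoprotein component also known as apolipoprotein J) 0.606% and Glul (glutamine synthetase) 0.444%. Ttr, the transthyretin gene of the choroid plexus, also appeared at 0.325%. After thinning it was seen in 66.7% of astrocytes (95% exact interval 64.5% to 68.8%), against 66.3% of endothelial cells. These shares pool unlike mice, since the share of astrocytes ran from 2.60% to 94.6% over single mice. Whether Ttr RNA in these cells is background or their own was not tested.

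Depth in astrocytes was even, and the libraries differed in RNA makeup. The UMIs summed over the astrocytes of a mouse ranged from 315241 to 439880, and the median UMIs per astrocyte from 1059 to 1188. Of all barcodes, 8 occurred in more than 1 mouse, and 0 of them among astrocytes. In astrocytes, mt-Rnr2 over mt-Cytb, a ratio of 2 mitochondrial RNAs, was 14.4, 4.77 and 19.8 in the ASO mice, against 16.3, 8.64 and 19.6 in the PBS mice. Over all cells of each mouse, the sorted ratios were 4.49, 7.16, 10.9, 12.9, 15.9 and 16.8. This order was cut into 3 sets of 2 mice, and the cuts are a choice. Each set held 1 ASO and 1 PBS mouse, which are replicates 2, then 1, then 3 of both groups. The ratios were near each other within the last 2 sets and less so in the first. The labels name no batch, and these sets were made from the data. The median share of mitochondrially encoded UMIs in astrocytes was highest in ASO replicate 3 (8.30%) and PBS replicate 3 (8.78%), against 4.75% to 6.01% in the other mice. PBS replicate 3 also held a group of 14 astrocytes that occurred in no other mouse, described below. Nothing in the labels ties mice of the 2 groups to each other. With 3 mice a group, p-values set the difference between groups against the spread between these few mice.

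The genes that varied most between mice of the same group were set apart from the ASO contrast by a pooled SD of log2 level, with a median of 0.222 over 1770 genes of at least 100 CPM. Ttr was first with an SD of 1.02, and stood at 2937, 2009.9 and 6212 CPM in the ASO mice, against 3023, 4479 and 926 CPM in the PBS mice. Its level in the other cells of the same mice was lowest in PBS replicate 3 too, at 1081 CPM. Etnppl, an enzyme that degrades phosphoethanolamine and is typical of astrocytes, was next with 1.01, at 75.0, 486 and 271 CPM in the ASO mice, against 146, 237 and 244 CPM in the PBS mice. Insig1, which restrains sterol synthesis, was at 227, 165 and 78.3 CPM in the ASO mice, against 292, 119 and 93.2 CPM in the PBS mice. Insig1 was highest in ASO replicate 1 and PBS replicate 1 within their groups. Slc20a1, a phosphate transporter, had the same order, at 375, 170.2 and 132 CPM in the ASO mice, against 285, 151 and 132 CPM in the PBS mice. The groups overlapped for each of these genes.

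Mylip, the targeted gene, was near its limit of detection in astrocytes. It had 4, 0 and 1 UMIs in the ASO mice, against 0, 1 and 1 in the PBS mice, and was seen in 6 of 1877 astrocytes. A count of 3 UMIs, the limit that a count of 0 allows, made 6.82 to 9.52 CPM per mouse. Astrocytes held 0.960% of all Mylip UMIs while being 14.9% of cells, and the cells of all other classes together held 256 UMIs in the ASO mice and 466 in the PBS mice. A difference in Mylip between the groups was not detectable in astrocytes at this depth, so the comparisons below concern cells in which the RNA of the target was barely seen in either group.

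No difference in the share of astrocytes among recovered cells was detected. They were 13.5, 16.6 and 15.9% of cells in the ASO mice, against 14.2, 17.0 and 12.7% in the PBS mice. The means were 15.3 ± 1.59% in the ASO mice and 14.6 ± 2.16% in the PBS mice (SD, n = 3 each), and the difference of 0.695 percentage points had p = 0.8 in an exact two-sided permutation test, for which 0.1 is the smallest value. Without PBS replicate 3 the difference was -0.248 percentage points. Shares of cells after dissociation depend on which cells survive it and are not shares of the tissue.

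No gene passed the test between ASO and PBS astrocytes. edgeR's quasi-likelihood test on UMIs summed per mouse called 0 of 6282 genes (0%) at an adjusted p of 0.05, the smallest adjusted p being 0.652, and DESeq2 and limma voom also called 0. At an unadjusted p under 0.05 edgeR had 218 genes (3.47%), of which 103 had a higher and 115 a lower level in ASO mice, DESeq2 had 65 and voom 210. The 3 ASO mice lay above all 3 PBS mice for 315 genes (5.01%) and below them for 250 (3.98%). Without ASO replicate 3 edgeR called 1 gene, Gm10800, a predicted gene of unknown role, and without PBS replicate 2 it called 1, Gria4, described below. The genes named next are those with the smallest p in each direction, and they are given with their values and not as called genes.

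Among genes with a positive fold change, Fcgrt (the neonatal Fc receptor, which carries IgG and albumin; chr7:45092990-45103851, minus strand) had 68.2, 70.1 and 54.2 CPM in the ASO mice, against 15.9, 24.7 and 36.1 CPM in the PBS mice. That was 30, 28 and 18 UMIs in the ASO mice, against 5, 10 and 12 in the PBS mice. Its log2 fold change was 1.32 (SE 0.337), with an edgeR adjusted p of 0.652. The groups did not overlap for Fcgrt or for any other gene with a positive fold change named in this rank. Ptgds, the prostaglandin D synthase gene (chr2:25466709-25470046, minus strand), had 100.03, 228 and 90.3 CPM in the ASO mice, against 50.8, 76.6 and 66.1 CPM in the PBS mice, and its log2 fold change was 1.09 (SE 0.292). ASO replicate 2 was the highest for Ptgds, and without it the log2 fold change was 0.54. Rnf115, a ubiquitin ligase gene, had 63.7, 85.1 and 66.2 CPM in the ASO mice, against 41.2, 34.6 and 12.03 CPM in the PBS mice, and its log2 fold change was 1.27 (SE 0.334). Prelp, a small proteoglycan of the matrix, had 132, 125 and 87.3 CPM in the ASO mice, against 53.9, 61.8 and 78.2 CPM in the PBS mice, and its log2 fold change was 0.84 (SE 0.247). Bhlhe40, a transcriptional repressor that dampens the circadian clock, had 148, 118 and 108 CPM in the ASO mice, against 79.3, 76.6 and 78.2 CPM in the PBS mice, and its log2 fold change was 0.68 (SE 0.227). The other genes of this rank were Lrrc51 (1.54), Magee1 (1.58), the ciliary transport gene Ift52 (1.40), the chromatin remodeller Smarcad1 (1.31), Ccdc59 (0.80), the DNA repair nuclease Ercc5 (1.05) and Hhatl (0.98). Lrrc51 lies across Lamtor1 on the opposite strand, and whether the counting used the strand is not given in the sources used here.

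Fcgrt and Ptgds were far higher in other classes. Over all mice, Fcgrt stood at 46.3 CPM in astrocytes, against 304 CPM in endothelial cells. Ptgds stood at 105 CPM in astrocytes, against 30713 CPM in fibroblast-like cells and 7313 CPM in oligodendrocytes. A positive log2 fold change of Ptgds was not particular to astrocytes. It was 2.34 (SE 0.428) in polydendrocytes, with an edgeR adjusted p of 0.00707. It was 1.65 (SE 0.419) in mural cells, 1.21 (SE 0.573) in Cajal-Retzius neurons and 0.40 (SE 0.362) in microglia and macrophages. In oligodendrocytes it was 0.09 (SE 0.172) and in endothelial cells -0.30 (SE 0.273). Markers of other cell types in the astrocyte sums were measured beside Fcgrt and Ptgds. The summed level of 6 endothelial markers ranged from 95.5 to 125 CPM in the ASO mice and from 41.2 to 60.1 CPM in the PBS mice. For 6 microglial markers it ranged from 70.5 to 105 CPM in the ASO mice and from 53.9 to 60.1 CPM in the PBS mice. For 6 neuronal markers it ranged from 179.6 to 196 CPM in the ASO mice and from 133 to 162 CPM in the PBS mice. The groups did not overlap for these 3 sums or for 8 neural stem cell markers (334 to 361.5 CPM in the ASO mice and 263 to 321.4 CPM in the PBS mice). They overlapped for oligodendrocyte, oligodendrocyte precursor, macrophage, mural, choroid plexus, ependymal, fibroblast and erythrocyte markers. Hopx alone made up 229 to 259 CPM of the stem cell sum in the ASO mice, and 78.5% of its UMIs lay in astrocytes. No endothelial or microglial marker had enough UMIs in astrocytes to be tested singly. Of all tested genes, taken singly, 5.01% lay higher in all 3 ASO mice than in any PBS mouse. Of single markers, Gpr17 (precursors), Pf4 (macrophages) and Lum (fibroblasts) were at 0 in all 6 mice. The part of other cells' RNA in the results for Fcgrt and Ptgds was not tested.

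Among genes with a negative fold change, Nvl, an ATPase of ribosome assembly (chr1:181087138-181144204, minus strand), had the smallest p. It had 43.2, 25.0 and 51.2 CPM in the ASO mice, against 108, 71.7 and 93.2 CPM in the PBS mice, and its log2 fold change was -1.19 (SE 0.288), with an edgeR adjusted p of 0.652. Gsn, which encodes gelsolin, an actin-severing protein that also circulates in plasma (chr2:35256380-35307892, plus strand), had 47.7, 45.1 and 42.2 CPM in the ASO mice, against 108, 74.2 and 87.2 CPM in the PBS mice. Its log2 fold change was -0.97 (SE 0.265) with an edgeR adjusted p of 0.652, and the groups did not overlap. Ccm2, an adaptor protein gene known from vascular malformations, had 9.09, 12.5 and 18.1 CPM in the ASO mice, against 50.8, 37.1 and 33.1 CPM in the PBS mice, and its log2 fold change was -1.62 (SE 0.433). The tetraspanin gene Cd9 was the most abundant of these genes. It had 173, 170.2 and 145 CPM in the ASO mice, against 314, 190.4 and 249.5 CPM in the PBS mice, and its log2 fold change was -0.61 (SE 0.196). Kirrel2, a cell adhesion gene, had 20.5, 35.0 and 30.1 CPM in the ASO mice, against 41.2, 91.5 and 57.1 CPM in the PBS mice, and its log2 fold change was -1.19 (SE 0.347), and 85.7% of its UMIs in the whole table were in astrocytes. PBS replicate 2 was the highest for Kirrel2, and without it the log2 fold change was -0.79. In cells with no UMI of a defining marker of another cell type, Cd9 had a log2 fold change of -1.01. Only 442 of the 1877 astrocytes were such cells, so values from them rest on fewer UMIs. They are given here and below without an SE, and their distance from the values of all astrocytes was not tested. The remaining genes of this rank were the hydroxylase gene Ogfod1 (-1.53), the kinase gene Prkcd (-1.25), Tmem254b (-1.27), which has near-identical copies and is uncertain, B3galt2 (-0.95), Lsm12 (-0.96) and Fam107b (-0.95). B3galt2 was highest in PBS replicate 1, and without that mouse its log2 fold change was -0.53.

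Gria4, an AMPA receptor subunit gene (chr9:4417896-4796234, minus strand), had the largest negative log2 fold change of this rank, -2.01 (SE 0.550), and it rested on 1 mouse. It had 5, 11 and 9 UMIs in the ASO mice, against 11, 9 and 70 in the PBS mice. PBS replicate 3 alone was high, and the other 2 PBS mice lay within the range of the ASO mice or just above it. Of its 70 UMIs, 61 lay in the 14 astrocytes of the separate group in that mouse. Without that group the gene's log2 fold change was -0.39.

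**Figure D2:**
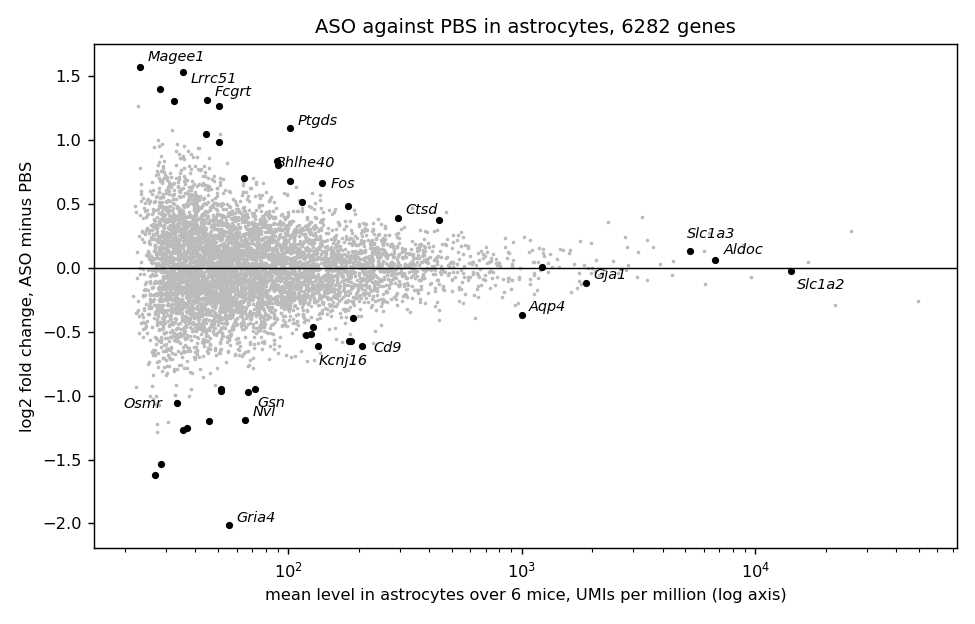
Mean level in astrocytes over the 6 mice (CPM, log axis) against the log2 fold change, ASO minus PBS, for 6282 genes. Black points are the markers, the genes with the smallest p and list members with an unadjusted p under 0.05, and 18 of them carry their symbol. The named genes with the widest fold changes, from -2.01 for Gria4 to 1.58 for Magee1, lie at levels below 100 CPM, and none of the 6282 genes passed the test.

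The transport functions of astrocytes were compared next. Of 16 genes of glutamate and GABA handling, 15 were tested, 9 with a higher and 6 with a lower fitted level in the ASO mice, with a median log2 fold change of 0.09, where 49.9% of all tested genes had a higher level. Slc1a2 had 14129 ± 1128 CPM in the ASO mice and 14285 ± 1312 CPM in the PBS mice (SD, n = 3 each), and Glul 4521 ± 437 CPM in the ASO mice and 4319.7 ± 829.8 CPM in the PBS mice. Their log2 fold changes were -0.02 (SE 0.182) and 0.06 (SE 0.177). Slc7a10, a transporter of small neutral amino acids that include D-serine, was the one member of the list with an unadjusted p under 0.05. It had 173, 118 and 145 CPM in the ASO mice, against 266, 176 and 210.4 CPM in the PBS mice, without overlap, and its log2 fold change was -0.57 (SE 0.203) with an edgeR adjusted p of 0.999. It is largely an astrocyte gene here, with 82.0% of its UMIs in that class.

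Of 14 genes of potassium and water balance, 13 were tested, 5 with a higher and 8 with a lower fitted level in the ASO mice, with a median log2 fold change of -0.13. The bicarbonate transporter gene Slc4a4 had 1945 ± 179 CPM in the ASO mice and 1999.7 ± 154 CPM in the PBS mice (SD, n = 3 each). Aqp4 had 875, 954 and 786 CPM in the ASO mice, against 1259, 1009 and 1100.3 CPM in the PBS mice, without overlap, and its log2 fold change was -0.36 (SE 0.159). Kcnj16, a potassium channel subunit that pairs with the main astrocyte channel Kir4.1, had 161, 153 and 129 CPM in the ASO mice, against 279, 151 and 241 CPM in the PBS mice, and its log2 fold change was -0.57 (SE 0.209). PBS replicate 2 lay among the ASO mice for Kcnj16. The edgeR adjusted p was 0.999 for both genes. In the sum of all other cells, Aqp4 had a log2 fold change of -0.10 (SE 0.261). Of 5 gap junction genes 3 were tested, and all had a lower fitted level, with a median log2 fold change of -0.11. Gja1 had 1813 ± 25.5 CPM in the ASO mice and 1959.7 ± 119.7 CPM in the PBS mice (SD, n = 3 each). Its groups did not overlap, and its log2 fold change was -0.11 (SE 0.156). Gjb6, connexin 30, overlapped at 611 ± 154 CPM in the ASO mice and 619 ± 113 CPM in the PBS mice.

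Lipid transport and synthesis showed no called gene. Of 21 lipoprotein and LXR genes, 10 were tested, 7 with a higher and 3 with a lower fitted level in the ASO mice, with a median log2 fold change of 0.14. Apoe had 16918, 19493 and 14946 CPM in the ASO mice, against 14560.3, 18135 and 16914 CPM in the PBS mice, and its log2 fold change was 0.04 (SE 0.189). Clu had 6393, 6325 and 6199 CPM in the ASO mice, against 5180.2, 6267 and 5751 CPM in the PBS mice, and its log2 fold change was 0.13 (SE 0.170). Lcat and the receptor gene Lrp1 had -0.18 (SE 0.203) and 0.17 (SE 0.212).

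Of 22 genes of sterol synthesis, 20 were tested, 3 with a higher and 17 with a lower fitted level in the ASO mice, with a median log2 fold change of -0.20. Hmgcs1, the most abundant member, which makes the precursor of mevalonate, had 359, 313 and 316 CPM in the ASO mice, against 571, 324 and 304 CPM in the PBS mice. PBS replicate 1 was the highest for Hmgcs1, Insig1, Fdft1, Cyp51 and Sqle. Sc5d, which acts late in cholesterol synthesis, had 84.1, 143 and 81.3 CPM in the ASO mice, against 178, 131 and 135 CPM in the PBS mice, and its log2 fold change was -0.51 (SE 0.231), and was the one member with an unadjusted p under 0.05. Without ASO replicate 2 that value was -0.83. In the 442 cells with no UMI of a defining marker of another cell type it was -0.004, from fewer UMIs. Within the 3 sets of mice sorted by mitochondrial RNA ratio, the median log2 difference over the list was 0.17, -0.55 and -0.12, and without PBS replicate 1 the fitted median was 0.19. The direction of the list thus depended on 1 mouse. Of 23 genes of fatty acid synthesis and use, 21 were tested, 9 with a higher and 12 with a lower fitted level in the ASO mice, with a median log2 fold change of -0.05, and 0 had an unadjusted p under 0.05. Scd2, a desaturase gene, and Acsl3, a fatty acid ligase gene, had fold changes of 0.03 (SE 0.171) and -0.11 (SE 0.164) on the log2 scale.

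Most genes of the reactive state had too few UMIs for the test. Of 33 reactive astrocyte genes only 7 had enough UMIs to be tested, 3 with a higher and 4 with a lower fitted level in the ASO mice. Their median log2 fold change was -0.24, and the median within the 3 sets of mice was -0.22, -0.24 and -0.34. Of these 7, 1 had an unadjusted edgeR p under 0.05 and 0 passed after adjustment. Gfap, the intermediate filament gene that defines reactive astrocytes, had 582, 398 and 647 CPM in the ASO mice, against 1079, 485 and 586 CPM in the PBS mice, and its log2 fold change was -0.39 (SE 0.211) with an edgeR adjusted p of 0.999. PBS replicate 1 was the highest for Gfap and the other 2 PBS mice lay within the range of the ASO mice. After thinning, Gfap was seen in 19.6% of astrocytes (95% exact interval 17.8% to 21.4%), against 0.719% of endothelial cells, and Serpina3n, a protease inhibitor of reactive astrocytes, in 0.693% of astrocytes (95% exact interval 0.369% to 1.18%), against 0.166% of endothelial cells. Vim was seen in 6.02% of astrocytes (95% exact interval 4.99% to 7.19%), against 32.8% of endothelial cells, so vimentin RNA was more widespread in endothelial cells. C4b, a complement gene, had 209, 155 and 178 CPM in the ASO mice, against 289, 193 and 162 CPM in the PBS mice. Osmr, the oncostatin M receptor gene, had 9, 5 and 11 UMIs in the ASO mice, against 13, 17 and 17 in the PBS mice, without overlap, and its log2 fold change was -1.05 (SE 0.384).

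Of 14 genes of disease-associated astrocytes, a state described in amyloid mouse models, 12 were tested, 6 with a higher and 6 with a lower fitted level in the ASO mice, with a median log2 fold change of -0.11. Of these 12, 4 had an unadjusted p under 0.05, where 3.47% of all tested genes did, and 0 passed after adjustment. The list was chosen with earlier results of these data known, so this count is a description and not a test of the list. Gsn, Cd9 and Osmr had the negative fold changes given above, and Ctsd, a lysosomal protease gene, had 357, 335 and 310.1 CPM in the ASO mice, against 285, 255 and 222 CPM in the PBS mice and a log2 fold change of 0.40 (SE 0.171). ASO and PBS mice did not overlap for these 4 genes or for Igfbp5, a binding protein of insulin-like growth factors, at 214, 200.2 and 196 CPM in the ASO mice, against 219, 292 and 238 CPM in the PBS mice. Igfbp5 was named after its values were seen. Of all tested genes, 5.01% lay higher in all 3 ASO mice than in any PBS mouse and 3.98% lay lower. Over all mice, Ctsd stood at 297 CPM in astrocytes, against 7601 CPM in microglia and macrophages, and Cd9 at 203 CPM in astrocytes, against 1261 CPM there. The microglial marker sum in astrocytes was higher in all 3 ASO mice than in the PBS mice, as given above. The fold changes of Ctsd and Cd9 had opposite signs, and the part of microglial RNA in the value of either gene was not tested. Of 22 lysosomal genes, 19 were tested, 13 with a higher and 6 with a lower fitted level in the ASO mice, with a median log2 fold change of 0.04, and Cst3 had 24749.9, 37352 and 22789.6 CPM in the ASO mice, against 20702, 26212 and 22406 CPM in the PBS mice, and its log2 fold change was 0.29 (SE 0.207).

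Genes of astrocyte identity and contact were compared in the same way. All 21 listed transcription factors of astrocytes were tested, 9 with a higher and 12 with a lower fitted level, and 0 had an unadjusted p under 0.05. Zbtb20, a repressor gene of hippocampal development, had 1873 ± 159.7 CPM in the ASO mice and 1835 ± 125 CPM in the PBS mice, Sox9, a factor that specifies astrocytes, had 642 ± 142 CPM in the ASO mice and 674 ± 132 CPM in the PBS mice, and Nfia, a factor of gliogenesis, had 640.1 ± 72.3 CPM in the ASO mice and 702 ± 8.06 CPM in the PBS mice (SD, n = 3 each). Of 22 receptor genes, 19 were tested, 8 with a higher and 11 with a lower fitted level in the ASO mice, with a median log2 fold change of -0.02, and the neurotrophin receptor gene Ntrk2 had 0.14 (SE 0.159). Of 16 genes of synapse organization and matrix, 14 were tested, 5 with a higher and 9 with a lower fitted level in the ASO mice, with a median log2 fold change of -0.03, with Sparcl1 at 9327 ± 994 CPM in the ASO mice and 9738 ± 681 CPM in the PBS mice (SD, n = 3 each). Of 9 genes of phagocytic receptors and their bridging molecules, 9 were tested, 3 with a higher and 6 with a lower fitted level in the ASO mice, with a median log2 fold change of -0.04, with Mertk at 555 ± 72.1 CPM in the ASO mice and 565 ± 169 CPM in the PBS mice (SD, n = 3 each). Of 16 genes of amyloid precursor processing and clearance, 10 were tested, 6 with a higher and 4 with a lower fitted level in the ASO mice, with a median log2 fold change of 0.08, with App at 0.07 (SE 0.195). The App counts come from the mouse annotation, and reads of the human transgene were not separated here. Of 15 neural stem cell genes 4 were tested, and Hopx, a marker shared with radial stem cells, had 259, 255 and 229 CPM in the ASO mice, against 213, 215 and 222 CPM in the PBS mice, and its log2 fold change was 0.19 (SE 0.176).

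Genes of metabolism and redox balance came next. Of 23 genes of glycolysis, glycogen and lactate, 21 were tested, 10 with a higher and 11 with a lower fitted level in the ASO mice, with a median log2 fold change of -0.01. Of 19 metallothionein and redox genes, 18 were tested, 14 with a higher and 4 with a lower fitted level in the ASO mice, with a median log2 fold change of 0.05. Gpx1, a glutathione peroxidase gene, had 70.5, 80.1 and 93.3 CPM in the ASO mice, against 34.9, 66.7 and 42.1 CPM in the PBS mice, and its log2 fold change was 0.71 (SE 0.280). Over all mice, Gpx1 stood at 65.7 CPM in astrocytes, against 425 CPM in endothelial cells, and the endothelial marker sum was higher in all 3 ASO mice. Its part was not tested. Without PBS replicate 2 the log2 fold change of Gpx1 was 1.07. Mt1 had 7632, 11784 and 8864 CPM in the ASO mice, against 6059, 10467 and 8246 CPM in the PBS mice. Of 83 nuclear genes of oxidative phosphorylation, 77 were tested, 54 with a higher and 23 with a lower fitted level in the ASO mice, with a median log2 fold change of 0.05, with 0 called and the complex I genes Ndufs4 (-0.46) and Ndufb2 (-0.39) the members with an unadjusted p under 0.05. Of 86 cytosolic ribosomal protein genes, 82 were tested, 42 with a higher and 40 with a lower fitted level in the ASO mice, with a median log2 fold change of 0.01, among them Rps21 (0.38) and the processed pseudogene Rps3a2 (-0.53), whose reads may belong to other copies. Without PBS replicate 2 the value of Rps21 was 0.67, and in cells with no UMI of a defining marker of another cell type Ndufs4 had -0.07 and Ndufb2 -0.20. Of 13 mitochondrially encoded protein genes, 9 were tested, 3 with a higher and 6 with a lower fitted level in the ASO mice, with a median log2 fold change of -0.04.

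Genes of stress, hormones and the clock followed. Of 27 immediate early and stress genes, 14 were tested, 5 with a higher and 9 with a lower fitted level in the ASO mice, with a median log2 fold change of -0.11. Fos, an immediate early transcription factor that also responds to dissociation, had 116, 293 and 102 CPM in the ASO mice, against 105, 104 and 114 CPM in the PBS mice, and its log2 fold change was 0.67 (SE 0.278). ASO replicate 2 alone was high for Fos, and without it the log2 fold change was 0.03. Nfkbia, the inhibitor of NF-kB, had 102, 133 and 81.3 CPM in the ASO mice, against 152, 163 and 168 CPM in the PBS mice, without overlap, and its log2 fold change was -0.61 (SE 0.214). Of 11 glucocorticoid response genes 6 were tested, and 0 had a higher fitted level. Their median log2 fold change was -0.27, with 0 members at an unadjusted p under 0.05, and the median within the 3 sets of mice was -0.17, -0.75 and 0.03. Tsc22d3 (GILZ, a direct glucocorticoid target) had 164, 433 and 455 CPM in the ASO mice, against 311, 539 and 397 CPM in the PBS mice. Of 16 clock genes, 15 were tested, 8 with a higher and 7 with a lower fitted level in the ASO mice, with a median log2 fold change of 0.04, with Per3 at 116, 168 and 123 CPM in the ASO mice, against 63.4, 109 and 108 CPM in the PBS mice, and its log2 fold change was 0.52 (SE 0.237), and Bhlhe40 as given above. The log2 fold change of Per3 was 0.33 without ASO replicate 2, 0.31 without PBS replicate 1 and 0.86 in cells with no UMI of a defining marker of another cell type.

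Of 22 genes of interferon response and antigen presentation, 8 had enough UMIs to be tested, and all 8 had a higher fitted level in ASO mice, with a median log2 fold change of 0.20 and 0 members at an unadjusted p under 0.05. B2m, the light chain of class I histocompatibility molecules, had 264, 293 and 271 CPM in the ASO mice, against 263, 229.9 and 225 CPM in the PBS mice, without overlap, and its log2 fold change was 0.20 (SE 0.173). H2-K1, a class I heavy chain gene, had 141, 180.2 and 117 CPM in the ASO mice, against 149, 163 and 117 CPM in the PBS mice, and its log2 fold change was 0.03 (SE 0.211). The median within the 3 sets of mice was 0.28, -0.0022 and 0.14. Microglial and endothelial marker sums, given above, were higher in all 3 ASO mice, and their part was not tested. Of 7 long noncoding RNAs 6 were tested, and Malat1, a nuclear RNA, had 22529, 16738 and 20206 CPM in the ASO mice, against 27833, 20766 and 23879 CPM in the PBS mice, and its log2 fold change was -0.29 (SE 0.194).

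**Figure D3:**
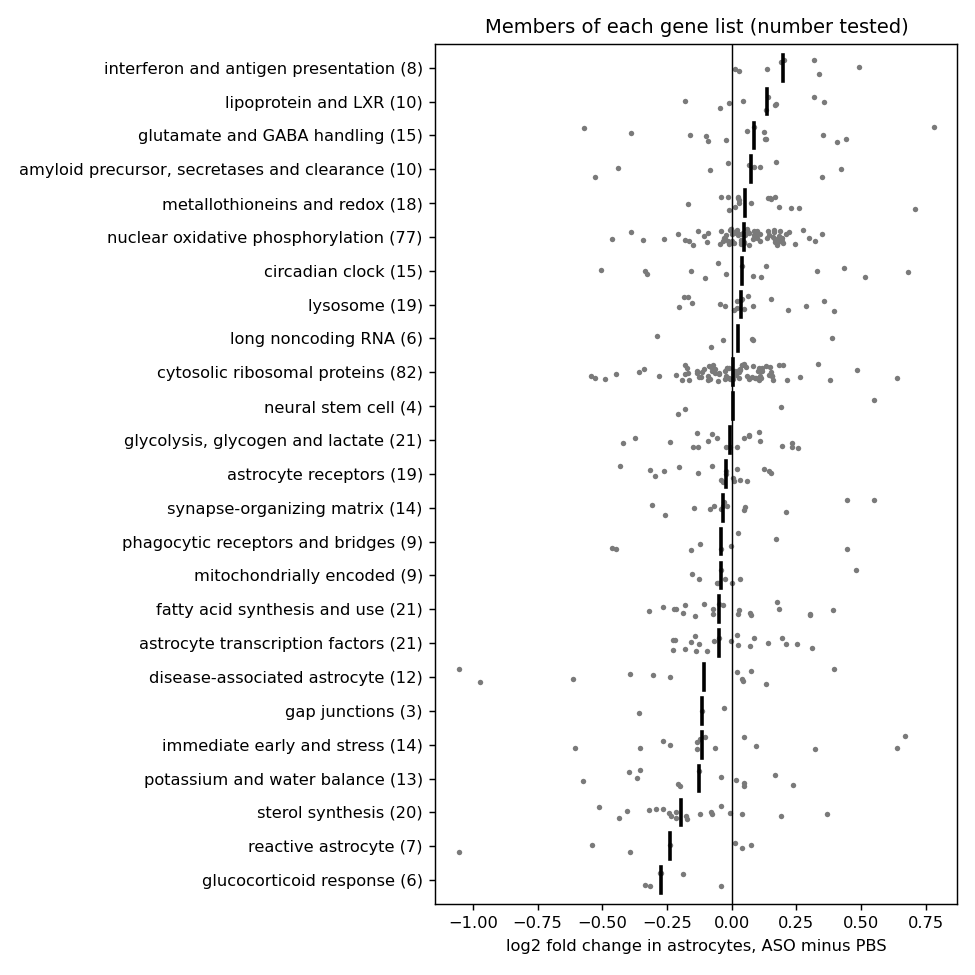
Log2 fold change in astrocytes, ASO minus PBS, for each tested member of 25 gene lists. Points are genes, black bars are list medians, and the number tested is in brackets. Medians run from -0.27 (glucocorticoid response) to 0.20 (interferon and antigen presentation), and no member passed the test.

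Whether the ASO contrast of astrocytes differed from that of all other cells was tested as an interaction in edgeR, with mouse as a block. Of 11601 genes, 1 passed (0.00862%), and 568 had an unadjusted p under 0.05. The called gene was Gsn, whose ASO mice lay below the PBS mice in astrocytes and above them in the other cells. In astrocytes it had 21, 18 and 14 UMIs in the ASO mice, against 34, 30 and 29 in the PBS mice. In the other cells it had 208 ± 26.8 CPM in the ASO mice and 152 ± 22.5 CPM in the PBS mice (SD, n = 3 each). There the lowest ASO mouse lay above the highest PBS mouse. The opposite orders describe a gene picked by this test and add nothing to it. In astrocytes 3.98% of tested genes lay lower in all 3 ASO mice than in any PBS mouse. The effect in astrocytes minus that in the other cells was -1.43 (SE 0.272) on the log2 scale, with an edgeR adjusted p of 0.0428. Over all mice, Gsn stood at 65.7 CPM in astrocytes, against 595 CPM in fibroblast-like cells and 525 CPM in oligodendrocytes, the 2 highest classes. Within oligodendrocytes its log2 fold change was 0.23 (SE 0.153, edgeR adjusted p = 0.872), in mural cells 0.45 (SE 0.344) and in polydendrocytes 0.02 (SE 0.333). The call was lost without ASO replicate 1, 2 or 3 (adjusted p = 0.469, 0.187 and 0.12) and without PBS replicate 1 or 3 (0.448 and 0.206). Against the mean effect over the other classes, in place of their sum, the difference was -1.73 with an adjusted p of 0.114.

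Other genes at the head of this comparison missed the threshold. Neat1, a nuclear RNA that builds paraspeckles, had 311, 298 and 295 CPM in astrocytes of the ASO mice, against 305, 346 and 271 CPM in those of the PBS mice. In the other cells Neat1 had 922 ± 116 CPM in the ASO mice and 521 ± 63.2 CPM in the PBS mice (SD, n = 3 each), without overlap. The difference of the effects was -0.85 (SE 0.182) with an edgeR adjusted p of 0.0961, and against the mean of the other classes it was -0.33. For Neat1 the 2 groups thus overlapped in astrocytes and lay apart in the sum of the other cells. Over all mice its level was 306 CPM in astrocytes, against 2159 CPM in oligodendrocytes, the highest class. Its log2 fold change was 0.77 (SE 0.156) in oligodendrocytes, with an edgeR adjusted p of 0.0261, and 0.56 (SE 0.218) in microglia and macrophages. In endothelial cells it was 0.17 (SE 0.188) and in mural cells 0.10 (SE 0.231), so a small value was not particular to astrocytes. Gria4 had a difference of -2.05 (SE 0.426) and an adjusted p of 0.0905, and without PBS replicate 3 it was -0.75. Gria4 was called without PBS replicate 1 (adjusted p = 0.0271) and without PBS replicate 2 (adjusted p = 0.00476). Igfbp5 in astrocytes was given above, and in the other cells it had 63.7 ± 5.56 CPM in the ASO mice and 44.5 ± 23.7 CPM in the PBS mice (SD, n = 3 each). There PBS replicate 1 alone was low, at 17.7 CPM, against 62.6 and 53.3 CPM in PBS replicates 2 and 3. The difference of the effects for Igfbp5 was -0.83 (SE 0.233) with an edgeR adjusted p of 0.789. For Fcgrt, which had the smallest p among positive differences, the other cells had 65.0 ± 5.45 CPM in the ASO mice and 71.7 ± 21.3 CPM in the PBS mice (SD, n = 3 each). Its difference was 1.504 (SE 0.355) with an adjusted p of 0.312, and in endothelial cells alone its log2 fold change was -0.06 (SE 0.182). The remaining positive differences were Smarcad1 (1.54), the cadherin gene Fat3 (1.02), Nr4a1 (3.49), Poc1b (1.93) and Polr3e (1.97). The negative ones were Tmem254b (-1.56), the hyaluronan receptor gene Cd44 (-2.14) and Hps3 (-3.94). Nr4a1 and Hps3 had few UMIs in astrocytes. Nr4a1 had 7, 5 and 3 in the ASO mice and 0, 1 and 0 in the PBS mice. Hps3 had 0, 0 and 1 in the ASO mice and 4, 3 and 7 in the PBS mice, so these fitted differences depend on the prior count.

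**Figure D4:**
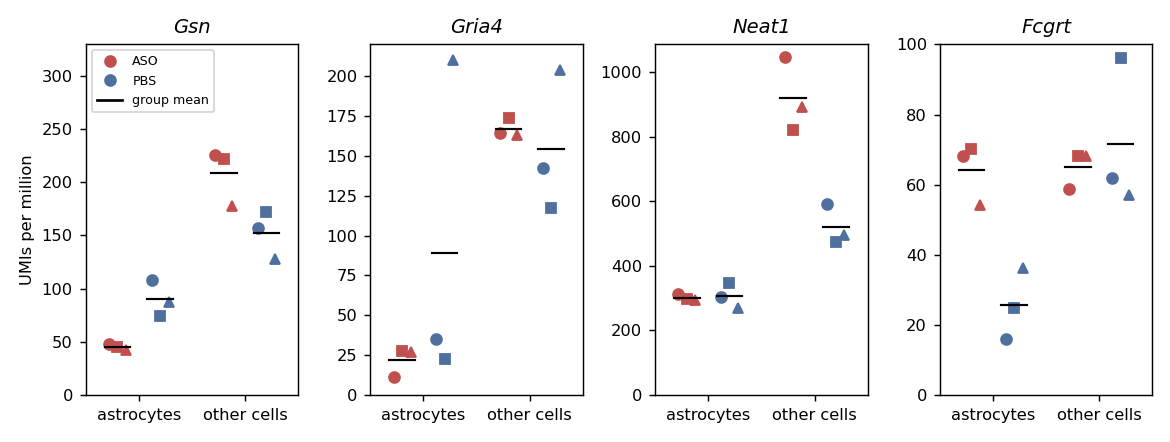
Levels of Gsn, Gria4, Neat1 and Fcgrt in astrocytes and in all other cells of each mouse, in CPM, with ASO mice left and PBS mice right and black lines for group means (circle, square and triangle are replicates 1, 2 and 3). Gsn averaged 45.0 CPM in ASO and 89.7 CPM in PBS astrocytes, and the order was opposite in the other cells. The Gria4 mean in PBS astrocytes rests on replicate 3.

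Astrocytes were divided into sub-clusters by their own variable genes, and the leading genes are given as a description since they define the groups. Sub-cluster 0 held 794 cells, sub-cluster 1 1069 and sub-cluster 2 14. None is given a name. Sub-clusters 0 and 1 differed by degree. Levels in a sub-cluster are set against those in all other astrocytes. In sub-cluster 0, Ccdc141 had 149 CPM, against 50.7 CPM in the others, and the neuregulin receptor gene Erbb4 had 139 CPM, against 50.7 CPM in the others. Sub-cluster 1 was led by mitochondrial transfer RNAs, among them mt-Tv with 345 CPM, against 78.3 CPM in the others. The kinesin gene Kif5a had 250.4 CPM, against 72.0 CPM in the others. Serpina3n, Gfap and Vim, markers of the reactive state, were higher in sub-cluster 1 too. Serpina3n had 37.1 CPM, against 3.13 CPM in the others, and its 47 UMIs lay in only 32 of the 1069 cells. Gfap had 795 CPM, against 371 CPM, and Vim 208 CPM, against 108 CPM. The remaining listed reactive genes are not given by sub-cluster here. Slc1a3 stood at 5429 CPM in sub-cluster 0 and 5161 CPM in sub-cluster 1. Genes with a long span in the genome were relatively higher in sub-cluster 0. Genes were put in 4 equal bins by span. Over the bin of the longest span (median 172 kb, 898 genes) the median log2 ratio of sub-cluster 0 over 1 was 0.24, and over that of the shortest (median 5.49 kb, 899 genes) it was -0.24. The median depth was 1102 UMIs in sub-cluster 0 and 1092 in sub-cluster 1.

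The shares of the sub-clusters did not differ between the groups beyond their spread. Sub-cluster 0 made up 51.0, 30.2 and 44.2% of astrocytes in the ASO mice, against 50, 35.1 and 45.4% in the PBS mice, and the difference of means was -1.66 percentage points. Sub-cluster 1 made up 49.0, 69.8 and 55.8% in the ASO mice, against 50, 64.9 and 49.4% in the PBS mice. The exact two-sided permutation p was 0.8 for sub-cluster 0 and 0.7 for sub-cluster 1 (1 after adjustment over the 3 sub-clusters), where 0.1 is the smallest value. ASO replicate 2 and PBS replicate 2 had the lowest shares of sub-cluster 0 within their groups, and they also had the lowest mt-Rnr2 over mt-Cytb.

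Sub-cluster 2 came from PBS replicate 3 alone, where it was 5.20% of astrocytes, and 0 of its cells came from the other 5 mice. Gria4 stood at 3772 CPM, against 24.5 CPM in the other astrocytes. The septin gene Sept4 stood at 2844 CPM, against 44.8 CPM in the others, and the AMPA receptor gene Gria1 at 1793 CPM, against 92.9 CPM. Of the markers, Slc1a3 stood at 10636 CPM, against 5276 CPM in the others, whereas Slc1a2 stood at 2783 CPM, against 14355 CPM and Apoe at 5998 CPM, against 17053 CPM. Gfap had 0 UMIs in these cells. They are counted as hippocampal astrocytes by their deposited class alone, and whether they are such cells was not tested, so the Gria4 values of PBS replicate 3 are uncertain. Timp4, an inhibitor of matrix proteases, was among the leading genes too. Median depth was 1062 UMIs. Leaving them out changed the count of called genes in neither comparison.

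**Figure D5:**
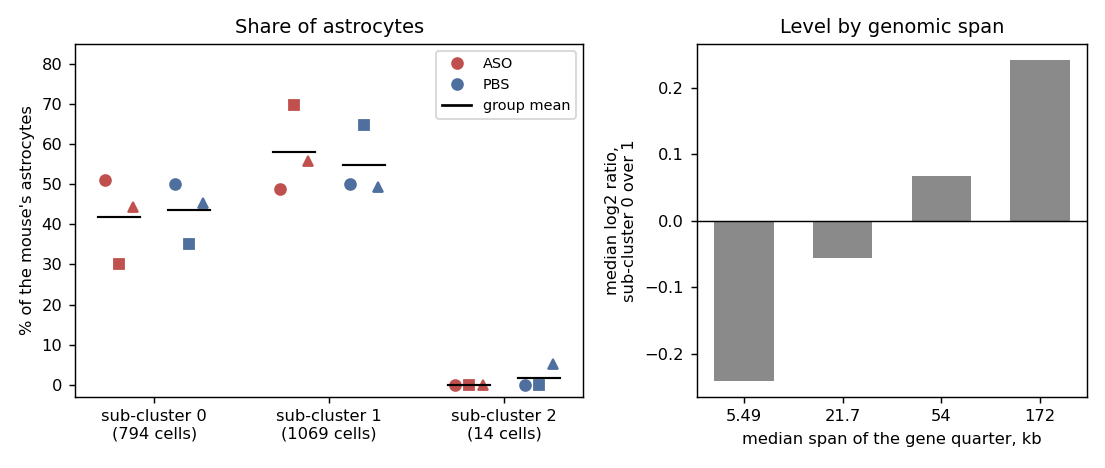
Left, share of each mouse's astrocytes in 3 sub-clusters, with ASO mice left and PBS mice right and black lines for group means (circle, square and triangle are replicates 1, 2 and 3). Right, median log2 ratio of sub-cluster 0 over sub-cluster 1 for 4 equal bins of genes by genomic span, from -0.24 in the shortest to 0.24 in the longest bin. Sub-cluster 2 is seen in PBS replicate 3 only.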

How the data were processed

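Single hippocampal cells of 6 mice were measured by Drop-Seq, and the authors deposited 1 table of whole UMI counts for 28324 genes and 12823 cells, whose column names give the mouse and 1 of 17 classes. The submitters' processing notes list STAR 2.5.0c, bcl2fastq, GRCm38 and mm10. How UMIs were counted and which cell filters applied is not given in the sources used here. In the deposited counts every cell had at least 501 genes, 569 to 1999 UMIs and at most 15.0% mitochondrially encoded UMIs. Groups come from the treatment named in the labels, and mice were numbered within a group in sample order, so numbers pair no mice.

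Doublets were called per mouse with Scrublet in scanpy 1.11.5 and removed (207 of all cells, 1.61%). Counts of astrocytes were summed per mouse and tested in edgeR 4.0.16 (R 4.3.3) with filterByExpr, TMM and the quasi-likelihood test, two-sided, with Benjamini-Hochberg adjustment over all genes tested and a threshold of 0.05. The script was tested on simulated data. Shares were compared by exact permutation tests in scipy 1.17.1 over 20 assignments. Sub-clusters were made with 2000 variable genes, 30 components, 15 neighbours and Leiden at resolution 0.5. Detection shares used cells thinned to 500 UMIs. Alternatives were DESeq2 1.42.0, limma 3.58.1 voom, other scalings, filters and cell choices, a term for the 3 sets of mice, and each mouse left out. Gene positions are from GENCODE vM21 (GRCm38) and promoters from RefSeq.

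Named genes were the 12 with the smallest p in each direction, the up to 5 most abundant members of each list and every member with an unadjusted p under 0.05, from which the text takes examples, and the first 20 by ratio to the next class, 8 by sub-cluster, 10 by spread and 6 in each direction of the interaction. The members and lists were chosen with earlier results of these data known.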

Additional observations from a re-analysis of the deposited data

Results flagged for a closer look

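Gsn drew attention because its ASO effect in astrocytes differed from that in all other cells by a test of the difference itself. The effect in astrocytes minus that in the other cells was -1.43 on the log2 scale (edgeR adjusted p = 0.0428, SE 0.272). In astrocytes all 3 ASO mice lay below all 3 PBS mice, and in the other cells all 3 lay above them. Gsn was picked by this difference, so these orders describe it and add nothing to the test. In astrocytes 3.98% of tested genes lay lower in all 3 ASO mice, and no such share is given for the other cells. The astrocyte values rest on 14 to 34 UMIs per mouse, and the call was lost in 5 of the 6 fits that left out 1 mouse.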

How the results depend on the processing

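Of the alternatives to the comparison of ASO and PBS astrocytes, DESeq2 size factors, DESeq2, limma voom, robust edgeR, doublets kept, the mitochondrial limit, Leiden clusters, thinning, the term for the 3 sets, the removal of sub-cluster 2 and the cells with no UMI of another type's defining marker also called 0 genes. That last choice left 442 cells and 1358 genes, and it ignored choroid plexus and erythrocyte markers. Of these, Ttr was seen in 66.7% of all astrocytes after thinning. Without a filter on low counts 2 genes were called (Gria4 and Gm10800), and leaving out 1 mouse gave 0 to 1. For the interaction, no filter gave 3 calls, doublets kept gave 2, the mean of the other classes gave 2 (Gria4 and Igfbp5), and leaving out 1 mouse gave 0 to 2. The Gsn difference was -1.73 against the mean of the other classes (adjusted p = 0.114) and ran from -1.64 to -1.32 with 1 mouse left out. Without PBS replicate 2 it was -1.64 and still called. The cause was not tested.

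The difference in astrocyte share ran from -0.248 (without PBS replicate 3) to 1.87 percentage points with 1 mouse left out, and the smallest sub-cluster p from 0.4 to 1. Markers with a fold change near 0 changed sign. Ntsr2 was at -0.00237 with no filter, -0.0166 under the mitochondrial limit, -0.213 in cells with no other marker and -0.00658 without sub-cluster 2, and Slc1a2 was at 0.0034 under the mitochondrial limit. With 1 mouse left out, the log2 fold change ran from -0.0753 to 0.0543 for Ntsr2, from -0.0852 to 0.0753 for Slc1a2 and from -0.0504 to 0.163 for Aldoc. The labels pair no mice, so no replicate block was fitted. The term for the 3 sets of mice, which were made from the data, is the nearest to one, and it left 0 genes called and 277 at an unadjusted p under 0.05. Leaving out mice for the sub-cluster shares and leaving out sub-cluster 2 were chosen after seeing the data. Depth limits the results to genes with enough UMIs for the test, 6282 of the 19451 seen in astrocytes.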

Other observations

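A finer division of the astrocytes, at resolution 1.0, gave 14 sub-clusters, and the smallest exact permutation p for a share was 0.2, where 0.1 is the smallest value these 6 mice allow. One group of 73 cells was headed by the predicted gene Gm10800, with 56 UMIs in 6 cells. Immediate early genes among its leading genes also rested on few cells, with 28 UMIs of Ier2 in 5 cells and 46 UMIs of Egr1 in 14 cells. Serpina3n had 284 CPM there, against 11.3 CPM in the other astrocytes, and was seen in 14 cells, and Vim had 1145 CPM, against 122 CPM, and was seen in 45. These cells came from every mouse and made up 1.80% to 5.50% of astrocytes in the ASO mice and 1.86% to 4.65% in the PBS mice. A group of 80 cells was headed by haemoglobin RNA that lay in few of them, with 59 UMIs of Hbb-bs in 7 cells and 40 UMIs of Hba-a2 in 5 cells. A group of 151 cells held mitochondrial transfer RNAs, with mt-Tv at 1038 CPM, against 146 CPM. The group that held the cells high in Gria4 of PBS replicate 3 grew to 28 cells at this resolution, of which 19 came from that mouse. These groups were named after their values were seen.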
